A study of Homo sapiens with 6 samples.

Results

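The BCL2 family was examined as 10 genes of the deposited table, taken by gene name out of 50868 genes. They comprised 3 anti-apoptotic genes (BCL2, BCL2L1 and MCL1), 2 pro-apoptotic effector genes (BAX and BAK1) and 5 pro-apoptotic BH3-only genes (BCL2L11, BID, BBC3, PMAIP1 and BMF). RNA was sequenced from CUTLL1 cells, a human cell line from a T-cell acute lymphoblastic leukaemia in which NOTCH1 is activated. Lentivirus carried either a short hairpin RNA against AURKB (shAURKB, 3 libraries) or a control hairpin named for GFP (shGFP, 3 libraries). Both arms were infected and kept under puromycin, for a time the labels put at 48 h, and the design text calls the 3 replicates of an arm biological. Both arms are 1 cell line, and how many hairpins against AURKB were used is not given in the sources used here, so effects of AURKB loss and of the hairpin itself cannot be told apart.

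Proteins of this family decide whether the outer mitochondrial membrane stays intact. Anti-apoptotic members hold the effectors BAX and BAK in check, BH3-only proteins neutralise the anti-apoptotic members or activate the effectors, and active effectors form pores that release cytochrome c, which starts the caspase cascade. In thymocytes, the normal counterparts of this leukaemia, BIM (encoded by BCL2L11) drives the death of self-reactive cells and of cells exposed to glucocorticoids. Much of the family's control lies in protein binding, cleavage and turnover, none of which was measured here.

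AURKB mRNA, the target, was at 39.8, 43.9 and 36.03 CPM in the shAURKB libraries and at 100.4, 97.0 and 107 CPM in the shGFP libraries, where CPM are counts scaled to library size with TMM factors. It fell to 39.3% of the control level (log2 fold change -1.35 ± 0.08 SE, edgeR adjusted p = 2.54e-04). In these bulk libraries, fewer cells expressing a gene and less of its RNA per cell cannot be told apart. Library totals were 10446722 to 11641019 counts with shAURKB and 10154187 to 11922979 with shGFP. Summed T-lineage markers came to 3257 to 3431 CPM with shAURKB and 2994 to 3121 CPM with shGFP. Of the B-cell markers, PAX5 and MS4A1 had no reads, and the summed B-cell level of 22.2 to 27.4 CPM with shAURKB and 23.9 to 28.1 CPM with shGFP came mainly from CD79A. Myeloid markers summed to at most 2.92 CPM and erythroid markers to at most 0.191 CPM in any library. One control library stood apart: in shGFP replicate 1 the 6 fibroblast markers summed to 17.8 CPM, nearly all COL1A2, and the 5 epithelial markers to 9.31 CPM, against at most 0.394 and 1.17 CPM in the other libraries. In shGFP replicate 1 the epithelial sum came mainly from the keratin genes KRT8, KRT18 and KRT19 (33, 39 and 23 reads). EPCAM had 2 reads there, against 10 in shAURKB replicate 1, and CDH1 had 0. DCN, LUM, COL3A1 and PDGFRB had no reads in any library. Results that turn on shGFP replicate 1 are given with and without it.

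Across the 10 members, 3 pro-apoptotic genes rose with AURKB knockdown and 2 anti-apoptotic genes fell, while 5 genes did not pass the test. The rises were in BCL2L11, BAX and BID, and the falls in MCL1 and BCL2. Of all 14818 tested genes, 12.5% were called higher and 10.9% lower at an edgeR adjusted p below 0.05. Among the 9891 tested genes with at least 10 CPM, a level that only BBC3 and BMF lay below, 1769 were called higher and 1124 lower. Among the 7 pro-apoptotic members 3 were called higher, and among the 3 anti-apoptotic members 2 were called lower. The median log2 fold change was -0.19 for the anti-apoptotic members, 0.57 for the effectors and 0.14 for the BH3-only members, beside -0.00 for all tested genes and 0.04 for tested genes with at least 10 CPM. The effector value rests on BAX (0.78) and on BAK1 (0.37, or 0.15 without shGFP replicate 1), which was not called. The BH3-only members ran from -1.26 to 1.23. The arms did not overlap in 7 of the 10 members, 4 of them higher and 3 lower with shAURKB. Over all tested genes, 21.7% lay wholly higher and 20.9% wholly lower. Of the 9891 genes with at least 10 CPM, 2880 lay wholly higher and 1953 wholly lower. All 10 members passed the filter on low counts.

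**Figure D1:**
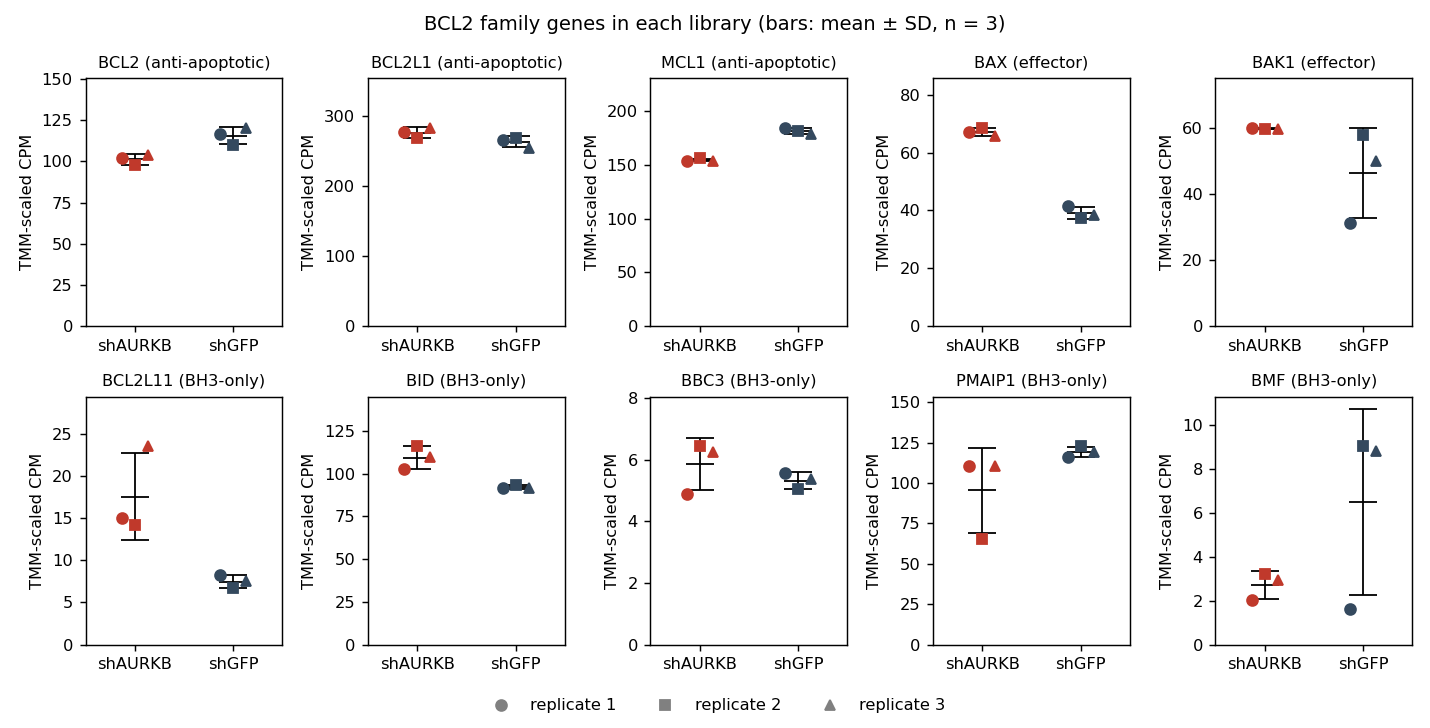
Level of each BCL2 family gene in TMM-scaled CPM in the 3 shAURKB libraries (red) and the 3 shGFP libraries (dark), with marker shape giving the replicate and bars the mean ± SD (n = 3). BAX and BCL2L11 lie higher in every shAURKB library, MCL1 and BCL2 lie lower, and single libraries stand apart for BAK1, PMAIP1 and BMF.

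BCL2L11 encodes BIM, a BH3-only protein that binds every anti-apoptotic member and can activate BAX and BAK directly. It had 14.97, 14.1 and 23.5 CPM in shAURKB replicates 1 to 3, against 8.21, 6.70 and 7.52 CPM in shGFP replicates 1 to 3. Every shAURKB library lay above every control, and shAURKB replicate 3 stood well above the other libraries of its arm. The gene rose 2.34-fold (95% interval 1.64 to 3.34), a log2 fold change of 1.23 ± 0.22 (SE, edgeR adjusted p = 8.75e-03). In all tested genes, 0.29% had a larger rise. Without shAURKB replicate 3 the log2 fold change was 0.96 (edgeR adjusted p = 9.58e-03). The call was lost in 1 of 16 alternatives, limma-trend on log2(FPKM + 1) without a filter, where the log2 fold change was 0.50 (adjusted p = 0.0751). The reads behind it were 564 with shAURKB and 247 with shGFP. At chromosome 2, 111119378 to 111168447 on the plus strand (GRCh38, ENSG00000153094), it shares no span with another gene of the table. GENCODE 29 extends the antisense MIR4435-2HG, with 327 reads with shAURKB and 323 with shGFP, across it. Both genes' reads could not be told apart if counted without strand, which is not given.

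The BCL2L11 promoter window is shown because it belongs to the member with the largest rise. It is taken from RefSeq (GRCh38.p14, chr2:111120664-111120963, plus strand) and runs from 250 bases before the annotated start to 50 after it. Forkhead factors such as FOXO3 are textbook activators of this gene, so the forkhead letters GTAAACA were searched on both strands, and the match is in capitals.
BCL2L11: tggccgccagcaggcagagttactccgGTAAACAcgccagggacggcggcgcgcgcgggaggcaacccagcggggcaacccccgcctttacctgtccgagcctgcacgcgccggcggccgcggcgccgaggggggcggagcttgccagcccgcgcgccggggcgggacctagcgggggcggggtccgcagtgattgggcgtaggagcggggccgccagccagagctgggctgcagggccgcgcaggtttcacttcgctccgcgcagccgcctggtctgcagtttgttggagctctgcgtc
The window holds 1 match, 223 bases before the start. Of 35116 such windows 3.42% hold at least 1, and no other member's window did. FOXO3 itself was at 48.0 ± 2.50 CPM with shAURKB and 53.9 ± 2.56 CPM with shGFP (SD, n = 3 each; log2 fold change -0.17 ± 0.07, edgeR adjusted p = 0.111). Binding was not measured.

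BID, which carries the signal from death receptors to mitochondria once caspase-8 has cut it, rose slightly. Its level was 102.7, 116 and 109.7 CPM with shAURKB and 91.4, 93.6 and 91.6 CPM with shGFP. The arms were apart, with the control libraries close together. The log2 fold change was 0.25 ± 0.06 (SE), or 1.19-fold (95% interval 1.08 to 1.302; edgeR adjusted p = 0.0219). It kept its call without shAURKB replicate 1, but lost it without any 1 of the remaining libraries (adjusted p 0.0508 to 0.0625) and with limma-trend on FPKM (adjusted p = 0.0661 with a pseudocount of 1). The gene lies on chromosome 22, 17734138 to 17774770, minus strand (ENSG00000015475).

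BBC3, PMAIP1 and BMF, the remaining BH3-only genes, did not pass the test and differed in their spread. BBC3 encodes PUMA, a BH3-only protein that binds all anti-apoptotic members (chromosome 19, 47220822 to 47232766, minus strand). It was at 4.90, 6.44 and 6.26 CPM with shAURKB and 5.57, 5.05 and 5.37 CPM with shGFP, and the arms overlapped. The interval of its fold change ran from 0.853 to 1.41 (log2 fold change 0.14 ± 0.15, edgeR adjusted p = 0.568).

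PMAIP1 encodes NOXA, which binds MCL1 and promotes its destruction (chromosome 18, 59899948 to 59904306, plus strand). It was at 110.7, 65.2 and 110.8 CPM with shAURKB and 116, 123 and 119 CPM with shGFP. The shAURKB libraries all lay below the controls, replicates 1 and 3 narrowly and replicate 2 far below. The log2 fold change of -0.32 ± 0.19 (SE, edgeR adjusted p = 0.266; 95% interval of the fold 0.588 to 1.09) was -0.10 without shAURKB replicate 2 (adjusted p = 0.225), so most of its size rested on that library.

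BMF, a BH3-only gene whose product sits on the dynein light chain until released by stress, had few reads, and its level was the lowest of the members with shAURKB (chromosome 15, 40087890 to 40108892, minus strand). It had 23, 33 and 31 reads with shAURKB and 17, 93 and 107 with shGFP, which is 2.01, 3.22 and 2.94 CPM against 1.604, 9.03 and 8.84 CPM. The controls disagreed, with shGFP replicate 1 below every shAURKB library and both other controls far above them. The log2 fold change was -1.26 ± 0.58 (SE, edgeR adjusted p = 0.166; 95% interval of the fold 0.160 to 1.09). Without shGFP replicate 1, the library with raised COL1A2 and keratin markers, it was -1.71 and passed (edgeR adjusted p = 7.57e-03; 7.57e-03 to 0.405 over all alternatives). The part of those markers in the result was not tested. The antisense gene BMF-AS1 shares 461 exonic bases with BMF and had 13 reads with shAURKB and 23 with shGFP.

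BAX, the effector that moves from the cytosol to mitochondria when activated, rose with little spread. It had 67.2, 68.5 and 65.7 CPM in the shAURKB libraries and 41.5, 37.5 and 38.3 CPM in the shGFP libraries. The lowest shAURKB value lay far above the highest control. The rise was 1.72-fold (95% interval 1.55 to 1.90), a log2 fold change of 0.78 ± 0.06 (SE, edgeR adjusted p = 5.29e-04), and 1.20% of tested genes rose more. It passed under all 16 alternatives that were tried. BAX (ENSG00000087088) lies on chromosome 19, 48954815 to 48961798, plus strand, and no annotated gene overlaps it.

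The BAX promoter is known for E-boxes, the letters CACGTG that MYC and related factors bind. Since the study concerns MYC, the window is shown with these letters in capitals (RefSeq, GRCh38.p14, chr19:48954625-48954924, plus strand, 250 bases before to 50 after the start).
BAX: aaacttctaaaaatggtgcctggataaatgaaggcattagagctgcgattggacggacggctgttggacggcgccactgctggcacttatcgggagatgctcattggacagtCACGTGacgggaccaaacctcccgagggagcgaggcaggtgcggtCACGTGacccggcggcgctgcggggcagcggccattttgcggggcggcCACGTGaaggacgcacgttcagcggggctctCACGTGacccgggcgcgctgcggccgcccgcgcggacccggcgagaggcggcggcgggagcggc
It holds 4 copies, starting 138, 93, 45 and 14 bases before the start. The letters read the same on both strands and were found at least once in 7.26% of 35116 windows, but 4 times or more in 5 windows, 0.0142%. These windows belong to BAX, LAMP1, RAD9A, AMDHD2 and SLC25A31. Of them LAMP1, a lysosomal membrane gene, was also called higher (log2 fold change 0.47 ± 0.04, edgeR adjusted p = 8.35e-04). RAD9A (0.01 ± 0.08) and AMDHD2 (0.20 ± 0.10) were not called (edgeR adjusted p = 0.917 and 0.219), and SLC25A31 was not tested. Among the other members, the BBC3 window had 1 copy, as did 2 of the 5 BID windows, and MCL1 had no window in the table used. MYC mRNA was at 12.5 ± 4.33 CPM with shAURKB and 11.6 ± 1.23 CPM with shGFP (SD, n = 3 each; edgeR adjusted p = 0.778). Binding to these windows was not measured, and a part of the E-boxes in the rise of BAX or LAMP1 was not tested.

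BAK1, the effector that resides in the outer mitochondrial membrane, was even across the knockdown libraries and uneven across the controls. It had 60.1, 59.8 and 59.8 CPM with shAURKB and 31.2, 57.9 and 49.99 CPM with shGFP. All shAURKB libraries lay above all controls, but shGFP replicate 2 came close to them and shGFP replicate 1 lay far below. The log2 fold change of 0.37 ± 0.20 (SE, edgeR adjusted p = 0.229; 95% interval of the fold 0.930 to 1.79) was 0.15 without shGFP replicate 1 (adjusted p = 0.245). That library is the one with raised COL1A2 and keratin markers, whose part in the value was not tested. BAK1 lies on chromosome 6, 33572547 to 33580293, minus strand. Its processed pseudogene BAK1P1 had 79 reads with shAURKB and 60 with shGFP, against 1930 and 1533 for BAK1, and how reads that match both copies were counted is not given.

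**Figure D2:**
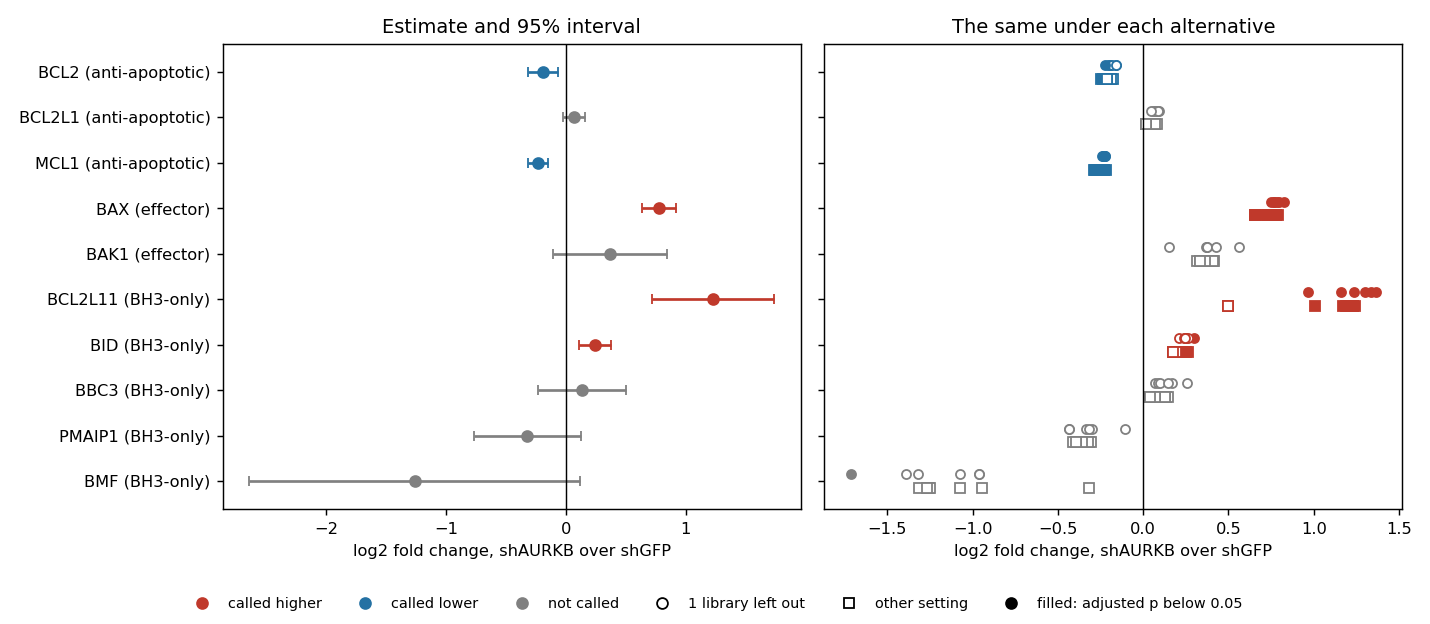
Log2 fold change (shAURKB over shGFP) of the 10 members. Left, estimate with its 95% interval; right, the same gene when 1 library is left out (circles) or another setting is used (squares), filled where the adjusted p is below 0.05. BAX and MCL1 are filled throughout, BCL2 and BID in part, and BMF once.

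MCL1, the short-lived guardian that NOXA and BIM oppose, fell by a small and tightly measured amount. It was at 154, 156 and 154 CPM with shAURKB and 184, 182 and 179 CPM with shGFP, with the arms well apart. The log2 fold change was -0.23 ± 0.04 (SE, edgeR adjusted p = 5.24e-03), or 0.851-fold (95% interval 0.803 to 0.902). The call held under all 16 alternatives (adjusted p 2.80e-03 to 0.0299). MCL1 lies on chromosome 1, 150574551 to 150579738, minus strand (ENSG00000143384).

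BCL2, the founding member of the family, also fell. It was at 102, 97.7 and 104 CPM with shAURKB and 117, 109.96 and 120.4 CPM with shGFP. The arms were apart by a few CPM between the highest shAURKB and the lowest control library. The log2 fold change was -0.19 ± 0.05 (SE, edgeR adjusted p = 0.0423), 0.876-fold (95% interval 0.803 to 0.956). The call held in 7 of 16 alternatives. It was lost without any 1 library other than shGFP replicate 2 (adjusted p 0.0747 to 0.126) and with DESeq2 (adjusted p = 0.0818), while its direction was kept in all 16. BCL2 lies on chromosome 18, 63123346 to 63320128, minus strand (ENSG00000171791).

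BCL2L1 encodes BCL-XL, on which thymocytes at the double-positive stage depend for survival, and it did not pass the test. It was at 278, 269 and 283 CPM with shAURKB and 267, 269 and 255 CPM with shGFP, with overlapping arms. Its fold change of 1.05 had a 95% interval of 0.985 to 1.12 (log2 fold change 0.07 ± 0.04, edgeR adjusted p = 0.234). The gene (chromosome 20, 31664452 to 31723989, minus strand) shares 1424 exonic bases with the antisense RNA gene ABALON, which had 3489 reads with shAURKB and 3334 with shGFP (log2 fold change 0.10 ± 0.05, edgeR adjusted p = 0.172). Without a stated strand setting, reads of both cannot be told apart. Counts per gene also do not separate the spliced forms with opposite roles, BCL-XL from BCL-XS or long from short MCL1.

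Levels between genes were compared in FPKM, the authors' counts per length and depth. Comparing genes this way allows for their length as the authors set it. The lengths used are not given, so the order below holds for these FPKM only. With shAURKB the order of mean FPKM was BCL2L1 (38.4), PMAIP1 (23.3), MCL1 (15.9), BAK1 (15.2), BAX (11.2), BID (9.48), BCL2 (6.11), BCL2L11 (1.13), BBC3 (0.985) and BMF (0.224). With shGFP the order was BCL2L1 (37.9), PMAIP1 (30.2), MCL1 (19.4), BAK1 (12.2), BID (8.27), BCL2 (7.23), BAX (6.77), BBC3 (0.928), BMF (0.553) and BCL2L11 (0.499). BAX stood at rank 5 with shAURKB and at rank 7 with shGFP, and BCL2L11 at rank 8 with shAURKB and at rank 10 with shGFP. Library ranges of neighbours in the order overlapped for PMAIP1 and MCL1 and for BCL2L11 and BBC3 with shAURKB. With shGFP they overlapped for BAK1 and BID, BCL2 and BAX, and BMF and BCL2L11. In FPKM, BCL2L1 exceeded BCL2 in every library, by 6.26 to 6.34 times with shAURKB and 4.87 to 5.64 times with shGFP. That ratio rests on the lengths used and on a BCL2L1 count that may hold reads of the antisense ABALON.

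Set against each other per library, the pro- and anti-apoptotic levels differed between the arms for several pairs, described here without a test because their genes were chosen with results known. The ratio of BAX to BCL2 in FPKM was 1.82, 1.94 and 1.75 with shAURKB and 0.987, 0.944 and 0.883 with shGFP. In these FPKM, BAX thus lay above BCL2 in each shAURKB library and below it in each control. Which gene lies higher depends on the lengths used, which are not given. Annotated exonic bases were 2587 for BAX and 11765 for BCL2, and the ratio was not computed with them. The crossing therefore cannot show which mRNA was the more abundant in either arm. BCL2L11 over MCL1 was 0.0610, 0.0567 and 0.0955 with shAURKB and 0.0279, 0.0231 and 0.0263 with shGFP. Both effectors together over the 3 anti-apoptotic genes came to 0.437, 0.449 and 0.425 with shAURKB and 0.236, 0.334 and 0.313 with shGFP, the lowest value again in shGFP replicate 1. PMAIP1 over MCL1 overlapped, at 1.71, 0.992 and 1.71 with shAURKB and 1.49, 1.60 and 1.58 with shGFP.

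**Figure D3:**
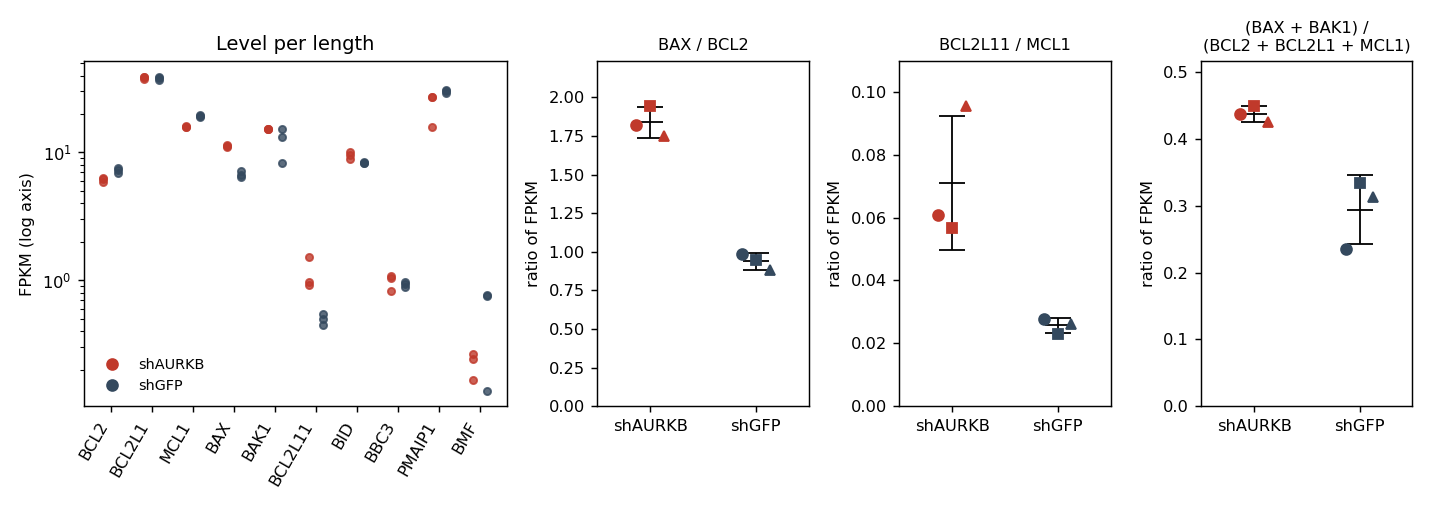
Left, FPKM of each member in every library on a log axis, shAURKB (red) left of shGFP (dark). Right, FPKM ratios per library with mean ± SD (n = 3): BAX over BCL2 (1.84 ± 0.10 with shAURKB, 0.938 ± 0.052 with shGFP), BCL2L11 over MCL1, and effectors over anti-apoptotic genes, with no overlap between the arms in any of the 3.

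By summed FPKM the 10 members together were level, while the makeup of their sum differed. The 10 genes summed to 122 ± 6.69 FPKM with shAURKB and 124 ± 4.02 with shGFP (SD, n = 3 each), with overlapping libraries. Effectors made up 20.6% to 23.3% of that sum with shAURKB and 12.8% to 16.9% with shGFP. Anti-apoptotic genes made up 48.5%, 51.9% and 48.4% with shAURKB and 54.5%, 50.7% and 51.2% with shGFP, and these shares overlapped. The 5 BH3-only members, also pro-apoptotic, had the lower sum with shAURKB, unlike the effectors, and this too is given without a test. They summed to 35.1 ± 5.99 FPKM with shAURKB and 40.4 ± 1.12 FPKM with shGFP (SD, n = 3 each). Their share of the sum over the 10 members was 24.7% to 31.0% with shAURKB and 32.4% to 32.8% with shGFP. Neither sums nor shares overlapped between the arms. By replicate the BH3-only sums were 37.9, 28.3 and 39.24 FPKM with shAURKB and 39.27, 41.5 and 40.6 FPKM with shGFP. Much of the gap thus lay in shAURKB replicate 2, where PMAIP1 was low, and shAURKB replicate 3 nearly reached shGFP replicate 1. Most of this sum over 5 genes was PMAIP1, which held 56.4% to 71.4% of it with shAURKB and 74.3% to 74.9% with shGFP. BCL2L11, at 1.13 FPKM with shAURKB and 0.499 FPKM with shGFP, added little to that sum beside PMAIP1.

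Beyond these members, 8 of 13 other genes of the family and its BNIP3 branch were tested, of which 1 rose and 2 fell (median log2 fold change -0.07). Of all 14818 tested genes, 12.5% were called higher and 10.9% lower, the shares against which this count and those of the lists below are read. BNIP3L and BNIP3 encode outer-membrane mitophagy receptors with a BH3-like stretch. BNIP3L was at 33.8, 36.3 and 35.8 CPM with shAURKB and 59.9, 66.4 and 62.1 CPM with shGFP and fell by 0.83 ± 0.06 in log2 terms (edgeR adjusted p = 5.29e-04). BNIP3 fell by 0.61 ± 0.07 (edgeR adjusted p = 1.80e-03). BAD, a BH3-only gene controlled by phosphorylation and named after its values were seen, rose by 0.45 ± 0.10 (edgeR adjusted p = 0.0184). The BAD call held in 10 of 16 alternatives and was lost without shAURKB replicate 2 or 3 or shGFP replicate 2 or 3 (adjusted p 0.0557 to 0.0578). The anti-apoptotic BCL2L2 (BCL-W) was at 1.65 ± 0.27 CPM with shAURKB and 2.46 ± 0.55 CPM with shGFP and was not called (edgeR adjusted p = 0.131). BCL2A1, BCL2L10, BCL2L15, BOK and HRK were not tested because of low counts.

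Downstream of the membrane, 15 apoptosome and caspase genes were tested, and 3 rose and 1 fell (median 0.11). Of the 9891 tested genes with at least 10 CPM, 1769 were called higher and 1124 lower. CYCS, which encodes cytochrome c, was at 271, 225 and 259.8 CPM with shAURKB and 177, 198 and 182 CPM with shGFP, with a log2 rise of 0.44 ± 0.08 (edgeR adjusted p = 8.39e-03). ENDOG, the mitochondrial endonuclease gene, rose by 0.61 ± 0.13 (edgeR adjusted p = 0.0174), a call lost without shGFP replicate 2 (adjusted p = 0.0528) or shGFP replicate 3 (adjusted p = 0.0567). DFFA, the inhibitor of the caspase-activated nuclease, also rose, and CASP8, the caspase that cuts BID, fell, both named after their values were seen. The CASP8 call was lost without shAURKB replicate 2 or 3 (adjusted p 0.0549 to 0.0549).

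Of the inhibitor of apoptosis proteins, which block caspases or, for survivin, serve chromosome segregation with Aurora B, 5 were tested. Of these genes 1 rose and 2 fell, beside 12.5% higher and 10.9% lower over all tested genes. The survivin gene BIRC5 had a log2 fold change of 0.28 ± 0.05 and rose (edgeR adjusted p = 7.49e-03). BIRC3, an NF-kB target that restrains caspase-8 activation, fell by 0.56 ± 0.10 (edgeR adjusted p = 8.84e-03), and BIRC6, named after its values were seen, also fell, a call lost without shAURKB replicate 2 or 3 or shGFP replicate 1 or 2 (adjusted p 0.0590 to 0.0661). Without shGFP replicate 1 the list had 1 fall in place of 2. In the death receptor pathway, edgeR called 0 of 8 tested genes, with 0 at an unadjusted p below 0.05 and 0 called by DESeq2 or limma-voom. The smallest p was that of the adaptor gene FADD (31.9 ± 0.71 CPM with shAURKB and 29.3 ± 2.20 CPM with shGFP, SD, n = 3 each; edgeR adjusted p = 0.281).

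Among 11 tested genes for transcription factors known to act on BH3-only genes, 1 rose and 2 fell (median -0.12). The shares over all tested genes were 12.5% higher and 10.9% lower. NR3C1, the glucocorticoid receptor gene, was at 53.1, 53.5 and 53.6 CPM with shAURKB and 82.9, 85.8 and 69.7 CPM with shGFP and fell by 0.57 ± 0.08 in log2 terms (edgeR adjusted p = 4.48e-03). ATF4, which directs the integrated stress response and can induce PMAIP1, fell by 0.32 ± 0.04 (edgeR adjusted p = 3.84e-03). RUNX1, named after its values were seen, passed narrowly as higher (0.28 ± 0.08, edgeR adjusted p = 0.0483), with overlapping arms. Its call held in 6 of 16 alternatives (adjusted p up to 0.207) and was lost without shAURKB replicate 2 or 3 or shGFP replicate 1 or 2 (adjusted p 0.127 to 0.132). Without shGFP replicate 1 no gene of the list was called higher.

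Genes for the turnover and docking of family proteins changed little in size. Of 9 tested turnover genes 1 rose and 2 fell, beside 12.5% higher and 10.9% lower over all tested genes. HUWE1, the ubiquitin ligase gene also called MULE that marks MCL1, fell by 0.27 ± 0.04 in log2 terms (edgeR adjusted p = 3.33e-03), and USP9X, the deubiquitinase gene that spares MCL1, fell by 0.24 ± 0.05 (edgeR adjusted p = 0.0119; named after its values were seen). The ligase gene BTRC rose by 0.38 ± 0.09 (edgeR adjusted p = 0.0256), but 8 of 16 alternatives lost the call, and without shGFP replicate 1 its adjusted p was 0.0608 and no gene of the list was called higher. It was also lost without shAURKB replicate 1 (0.0731), shAURKB replicate 3 (0.0606) or shGFP replicate 3 (0.0594). Of 10 listed genes for mitochondrial channels, fusion, fission and other partners, 5 rose, or 3 without shGFP replicate 1 (median 0.12). Not all of their products lie in the outer membrane. Among the 9891 tested genes with at least 10 CPM, 1769 were called higher. Calls over all genes also dropped with fewer libraries, from 1847 higher to 1294 without shGFP replicate 1. VDAC3, a channel of the outer membrane, rose by 0.35 ± 0.04 and MTCH2, the receptor for cleaved BID, by 0.32 ± 0.06 (edgeR adjusted p = 1.58e-03 and 0.0107).

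**Figure D4:**
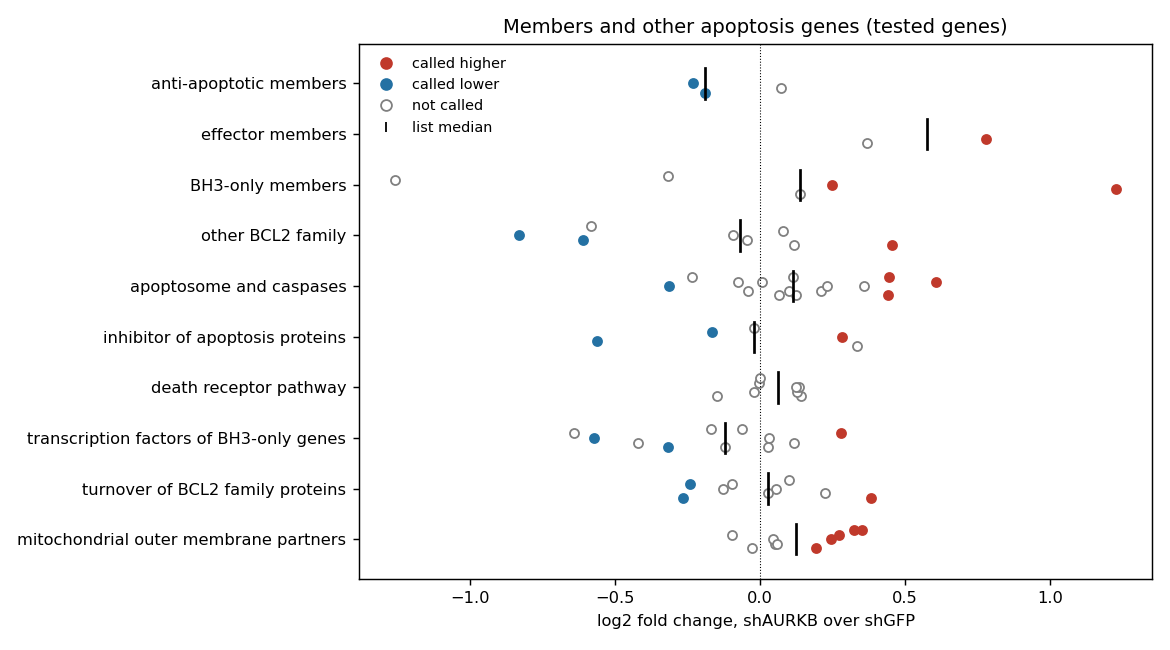
Log2 fold change (shAURKB over shGFP) of every tested gene, 1 row per list, filled red where called higher and filled blue where called lower, with the list median as a black bar. The widest spread among the members is in the BH3-only row, where BMF at -1.26 and BCL2L11 at 1.23 lie at opposite ends.

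Genes outside the family with the most similar profile over the 6 libraries were sought among 9881 genes with at least 10 CPM. For BCL2L11 these were PRELID1 (Pearson's r 0.999), ACTR5 (0.994) and TAOK3 (0.994). For MCL1 they were MZB1 (1.00), ULBP1 (0.999) and AARS (0.999). PRELID1 and ACTR5 were called higher and TAOK3 was not (log2 fold change 0.04, edgeR adjusted p = 0.508), while MZB1, ULBP1 and AARS were called lower. The values are a description over 6 libraries in 2 arms, and were the highest of a search over all these genes.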

How the data were processed

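RNA was measured in 6 CUTLL1 libraries, grouped by sample title. The authors deposited whole-number counts and FPKM per Ensembl gene, 50868 genes in all. HISAT2 2.0.4, StringTie 1.3.0, edgeR and GRCh38 are named per the submitters' processing notes, without roles; no strand or multi-mapping rule is given.

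Counts were filtered with filterByExpr (minimum count 10, total 15), leaving 14818 genes, scaled by TMM and compared between arms by edgeR 4.0.16 in R 4.3.3 (quasi-likelihood, two-sided), adjusted by Benjamini-Hochberg over all tested genes, with a threshold of 0.05. SE is the log2 coefficient divided by the root of F, and intervals use the test's degrees of freedom. FPKM served for levels between genes. The alternatives changed the scaling (upper quartile, RLE), the tool (limma-voom with limma 3.58.1, DESeq2 1.42.0, or limma-trend on log2(FPKM + 1) and log2(FPKM + 0.1)), the filter (none, or 1 CPM in 3 libraries), the replicate block, or dropped 1 library at a time. The tests were checked on simulated counts with known changes. Depth was 10154187 to 11922979 counts. Replicates were no copies (chi-square per degree of freedom 6.73 to 7.61).

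The members, lists, motifs and rules were chosen with earlier results of these data known. The text names all members, AURKB, per list the 2 called genes with the largest change or else the smallest p, and the 3 genes most similar to the most changed called pro- and anti-apoptotic member. Some listed genes, and 1 list, are not reported here. Gene names matched the table directly, except MARCH5, found by identifier. Promoters came from RefSeq and covered 9 of 10 members. List counts without shGFP replicate 1 were added after seeing the data.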

Additional observations from a re-analysis of the deposited data

How the results depend on the processing

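Over the 43 genes given with a fold change or a call, 684 values under the 16 alternatives were compared with those reported: 619 kept direction and side of the threshold, 53 lost the call, 2 gained it (BMF without shGFP replicate 1, and FOXO3 with upper-quartile scaling, adjusted p = 0.0459) and 10 changed sign. The sign changes were in MYC, RAD9A and TAOK3, which were not called. With 1 library left out, MYC ran from -0.128 (without shAURKB replicate 1) to 0.361 and RAD9A from -0.0535 (without shGFP replicate 2) to 0.0716. RAD9A was at -0.0403 with upper-quartile scaling, -0.0332 with log2(FPKM + 0.1) and -0.0301 in both fits on log2(FPKM + 1), and TAOK3 at -0.0159, -0.0132 and -0.0119 under the same settings. No member changed sign. Members called higher numbered 3 as reported, 1 with limma-trend on FPKM without a filter, and 2 to 3 with 1 library left out. Members called lower numbered 2 as reported, 1 with DESeq2, with no low-count filter, with the replicate block or with limma-trend on FPKM without a filter, and 1 to 2 with 1 library left out. Over all genes, 1847 were called higher and 1609 lower. With 1 library left out these were 1271 to 1336 and 998 to 1056, where fewer samples were fitted. Limma-trend on FPKM without a filter called 914 higher. Higher genes made up 53.4% of calls, 38.8% with upper-quartile scaling and 42.8% to 44.0% on FPKM. The anti-apoptotic median of -0.19 was -0.24 with upper-quartile scaling and with log2(FPKM + 0.1), and -0.22 to -0.16 with 1 library left out. The cause of these shifts was not tested. The replicate block called 1027 genes lower and lost the calls of BCL2 (adjusted p = 0.0604), BAD (0.0608), BTRC (0.0547) and BIRC6 (0.05005). Same-numbered libraries did not deviate together (r -0.09 to -0.03), and 0 of 3 shAURKB libraries correlated best with their own number. Whether same-numbered libraries share a batch is not given, and these correlations over few libraries cannot decide it. The p-values measure the spread between these cultures of 1 line. BMF had 17 to 107 reads in a library and BBC3 52 to 66, and what depth contributes to their errors was not tested.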

Other observations

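Among 9891 tested genes with at least 10 CPM, a library that was lowest by a wide margin (a ratio to the next lowest below 2/3) was found 29 to 37 times per library, 29 to 36 with shAURKB and 31 to 37 with shGFP. BAK1 (shGFP replicate 1 at 0.625 of the next lowest) and PMAIP1 (shAURKB replicate 2 at 0.589) were among them. The dip of BAK1 fell in the library with raised COL1A2 and keratin markers, and that of PMAIP1 in a library without that rise. This count was made after the values were seen.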
